A study of Drosophila melanogaster with 36 samples.

Results

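The 8 genes described here carry the integrated stress response and the unfolded protein response in Drosophila melanogaster: PEK, Gcn2, crc, Thor, Ire1, Xbp1, Atf6 and Hsc70-3. They were taken by symbol, and all 8 were found among the 17137 gene symbols of the count files. S2R+ cells, a Drosophila line kept in culture, were profiled by RNA sequencing in 36 libraries that form 12 groups of 3. The sample titles call the cells S2, and the other labels and the growth protocol call them S2R+. Control cells received no arsenite, stressed cells received 0.5 mM sodium arsenite for 3 h, and recovering cells were washed after the arsenite and held in fresh medium for 3 h more. These treatments were given to unmodified cells (WT), to cells with Mock RNAi and to cells with RNAi against rin (Rin), which encodes rasputin, the fly counterpart of the stress-granule protein G3BP. A further set of 9 libraries is titled Click-iT and beads, its molecule is given as total RNA, and its capture steps are not given in the sources used here. No label says that the 3 replicates of a group were separate cultures, so p-values measure the spread between these libraries, which may be technical.

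Phosphorylation of the translation factor eIF2 lowers general protein synthesis and favours translation of the transcription factor ATF4, which crc encodes in the fly. PEK is the eIF2 kinase of the endoplasmic reticulum (ER) and Gcn2 the one that senses amino acid shortage, while Thor encodes the translation repressor 4E-BP, a target of fly ATF4. Misfolded protein in the ER is sensed by Ire1, which splices Xbp1 RNA, by PEK and by Atf6, and the chaperone BiP, encoded by Hsc70-3, is a classical target of that response. Phosphorylation, splicing and translation are not seen in gene counts, so all values below are transcript levels.

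Levels are given as CPM, a read count divided by the reads assigned to genes in its library and set to a common depth after trimmed-mean (TMM) scaling, which cannot tell a change of RNA per cell from a change of all other RNA. Reads assigned to genes numbered 6121664 to 8940613 per WT library, 6897154 to 10775319 per Mock library, 7732150 to 11211712 per Rin library and 169760 to 2746277 per Click-iT library. In bulk RNA, fewer cells of a type and less RNA per cell cannot be told apart. Of 8 markers of hemocyte-like cells, the origin ascribed to this line, 6 had a median above 1 CPM over the 27 poly(A) libraries, whereas NimC1 was at 0 in 14 of them. The same cut was passed by 2 of 2 S2R+ markers, 2 of 3 neuron, 1 of 3 muscle and 2 of 3 germline markers. Among those, the germline gene bam had a median of 135 CPM and the neuronal gene elav 30.8 CPM, so the cut does not identify the line. Of rin RNA, 32.4% remained in Rin control, 24.8% in Rin stress and 23.7% in Rin recovery libraries relative to Mock libraries of the same treatment. Fold changes, standard errors (SE) and adjusted p-values come from edgeR's quasi-likelihood test with Benjamini-Hochberg adjustment over all genes of a fit, and a gene was called at an adjusted p under 0.05.

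PEK RNA rose under arsenite in all 3 poly(A) sets, and after recovery it was above control in WT cells, while in Mock and Rin cells it did not pass the test. Its level was 184, 173 and 192 CPM in WT control, 259, 266 and 263 CPM in WT stress, and 297, 296 and 317 CPM in WT recovery libraries. Stress and control libraries did not overlap, nor did recovery and control, with log2 fold changes of 0.52 (SE 0.04, adjusted p = 1.21e-13) and 0.73 (SE 0.04, adjusted p = 1.65e-18). Mock libraries held 249, 298 and 281 CPM in control, 376, 302 and 364 CPM in stress, and 284, 307 and 311 CPM in recovery. The lowest stressed Mock library lay just above the highest control library, and recovery overlapped control. In Mock cells the log2 change was 0.33 in stress (SE 0.08, adjusted p = 0.00197) and 0.12 in recovery (SE 0.08, adjusted p = 0.203). Rin libraries held 300, 283 and 295 CPM in control, 360, 370 and 380 CPM in stress, and 254, 308 and 304 CPM in recovery. Stress again stood clear of control, at a log2 change of 0.34 (SE 0.08, adjusted p = 0.00156), whereas in recovery it was -0.02 with a 95% interval of -0.20 to 0.15. Scaled by total library size alone, the stress change was 0.17 both in Mock (adjusted p = 0.106) and in Rin cells (adjusted p = 0.0965), and the Rin recovery value was called lower at -0.30 (adjusted p = 0.00496).

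Gcn2 RNA lay below control in Mock and Rin cells under arsenite and in recovery. In WT cells neither change from control passed the test. Recovery was called lower than stress in Rin cells. In Mock cells these groups overlapped and it was not called, at a log2 change of -0.28 (SE 0.09, adjusted p = 0.0642). WT libraries held 64.9, 69.3 and 69.0 CPM in control, 72.3, 65.7 and 72.7 CPM in stress, and 61.6, 62.0 and 64.2 CPM in recovery. The log2 change in WT cells was 0.05 in stress (SE 0.06, adjusted p = 0.492) and -0.12 in recovery (SE 0.06, adjusted p = 0.0636). The recovery value was called at -0.29 under total library size (adjusted p = 1.49e-05), at -0.14 without the filter on low counts (adjusted p = 0.0433) and at -0.15 without control replicate 1 (adjusted p = 0.0319). Mock libraries held 67.4, 83.2 and 76.1 CPM in control, 65.4, 49.6 and 65.8 CPM in stress, and 47.5, 48.8 and 53.0 CPM in recovery. All stressed and recovering Mock libraries lay below all control libraries, at log2 changes of -0.32 (SE 0.09, adjusted p = 0.00421) and -0.60 (SE 0.09, adjusted p = 6.89e-06). Fitted on Mock control and stress alone, the Mock stress change was -0.30 with an adjusted p of 0.0598. Rin control libraries held 94.3, 89.3 and 92.8 CPM, against 67.1, 65.7 and 68.5 CPM in stress and 47.4, 53.7 and 47.2 CPM in recovery. The 3 Rin groups did not overlap, and the log2 changes were -0.46 (SE 0.09, adjusted p = 0.000121) and -0.89 (SE 0.09, adjusted p = 2.41e-08).

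Gcn2 (chromosome arm 3R, bases 31395660 to 31402013 of BDGP6.54, plus strand) shares 454 exonic bases with PNPase on the minus strand, and Ire1 (3R, 19853908 to 19861291, minus strand) shares 496 with CG4662, named MICU3 in the annotation. Strand use in the authors' counting is not given in the sources used here, so the counts of these genes are uncertain over the shared bases. PNPase, which encodes a polynucleotide phosphorylase, fell in all 6 poly(A) comparisons with control, of which Gcn2 was called lower in the 4 of Mock and Rin cells. It fell by 0.52 on the log2 scale in WT recovery, 0.65 in Mock recovery and 0.71 in Rin recovery. CG4662 was called higher in Mock recovery at 0.36 and in Rin recovery at 0.31, and its WT recovery value was -0.08 (adjusted p = 0.288). Their part in the Gcn2 and Ire1 values was not tested. PEK (3R, 5458563 to 5464753, minus strand) overlaps no other gene in that annotation.

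Transcripts of crc, the gene of fly ATF4, rose under arsenite and stayed above control in recovery in all 3 poly(A) sets. WT libraries held 143, 145 and 138 CPM in control, 180, 184 and 198 CPM in stress, and 178, 174 and 182 CPM in recovery. Neither treated group overlapped control, and the log2 changes were 0.39 (SE 0.04, adjusted p = 4.74e-10) and 0.32 (SE 0.04, adjusted p = 3.11e-08). Mock libraries held 237, 281 and 261 CPM in control, 370, 304 and 357 CPM in stress, and 356, 397 and 390 CPM in recovery. The treated Mock groups lay wholly above control, at 0.40 in stress (SE 0.08, adjusted p = 0.000129) and 0.55 in recovery (SE 0.08, adjusted p = 2.17e-06). In Rin libraries crc stood at 281, 252 and 274 CPM in control, 359, 328 and 334 CPM in stress, and 344, 371 and 364 CPM in recovery. These groups did not overlap control either, with log2 changes of 0.34 (SE 0.08, adjusted p = 0.000653) and 0.42 (SE 0.08, adjusted p = 5.51e-05). Under total library size the Rin values were 0.17 in stress (adjusted p = 0.0697) and 0.14 in recovery (adjusted p = 0.134).

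By the annotation used here, the crc values rest on a small stretch of the gene. In BDGP6.54 crc spans bases 21310866 to 21319527 of chromosome arm 2L on the plus strand with 3423 exonic bases, of which 2515 are also exonic in CG46314, a gene annotated on the same strand. CG46314 is listed in the count files with 0 reads in all 36 libraries. Reads that hit more than 1 gene were set aside in the deposited counts, so by this annotation crc counts can come only from the other 908 exonic bases, and transcripts that lie wholly in the shared part are not counted. The annotation the authors counted with is not given in the sources used here and may divide these genes otherwise.

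Thor, the 4E-BP gene (2L, 3478434 to 3479612, plus strand, 755 exonic bases), had the largest rise of the 8 genes in WT, Mock and Rin cells. Its WT control level was 2.14, 2.93 and 1.77 CPM, resting on 14, 23 and 14 reads, against 13.6, 13.8 and 14.5 CPM in stress and 50.5, 54.7 and 51.4 CPM in recovery. The 3 WT groups did not overlap. Thor RNA was thus 6.07-fold higher in WT stress (95% interval 4.74 to 7.77, adjusted p = 4.53e-16) and 22.7-fold higher in WT recovery (19.0 to 27.1, adjusted p = 5.07e-29). Mock libraries started higher, at 10.2, 11.7 and 8.73 CPM, and reached 33.6, 35.1 and 31.2 CPM in stress and 51.6, 59.1 and 54.8 CPM in recovery. Again no groups overlapped, and the rise was 3.22-fold in Mock stress (2.77 to 3.75, adjusted p = 2.74e-11) and 5.34-fold in Mock recovery (4.64 to 6.15, adjusted p = 2.2e-14). Rin libraries held 7.36, 7.98 and 9.42 CPM in control, 33.4, 37.7 and 33.1 CPM in stress, and 52.0, 57.2 and 54.4 CPM in recovery. Their log2 change was 2.07 in stress (SE 0.11, adjusted p = 1.15e-12) and 2.72 in recovery (SE 0.10, adjusted p = 5.74e-15), with no overlap. Mean levels in recovery were close in the 3 sets, at 52.2 ± 2.2 CPM in WT, 55.2 ± 3.7 CPM in Mock and 54.6 ± 2.6 CPM in Rin (SD, n = 3). Among all 8123 genes of the WT fit, Thor held rank 188 from the top by log2 change in recovery.

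**Figure D1:**
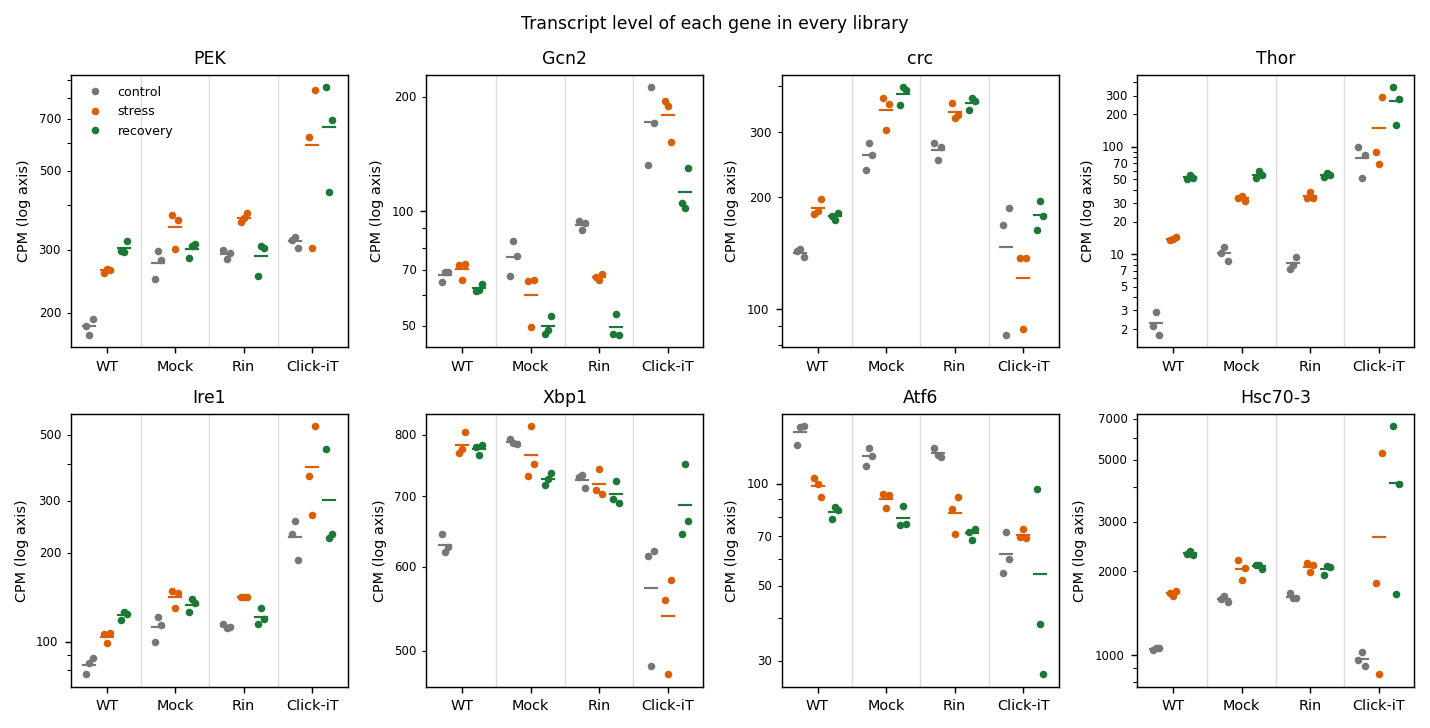
CPM on a log axis in each of the 36 libraries for each of the 8 genes, with points for libraries (gray control, orange stress, green recovery) and bars for the mean of 3. Thor recovery libraries of WT, Mock and Rin sit between 50.5 and 59.1 CPM while their controls differ, and Click-iT libraries spread widely for most genes.

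In the ER arm, WT cells raised Ire1, Xbp1 and Hsc70-3 and lowered Atf6, while Mock and Rin cells showed the Hsc70-3 and Atf6 changes without a called rise of Xbp1. Ire1, the ER sensor that splices Xbp1 RNA, stood at 77.5, 84.7 and 88.2 CPM in WT control, 106, 98.8 and 107 CPM in stress, and 118, 126 and 124 CPM in recovery. No WT groups overlapped, and the log2 changes were 0.31 (SE 0.05, adjusted p = 3.79e-06) and 0.55 (SE 0.05, adjusted p = 2.94e-12). Mock libraries held 100, 121 and 114 CPM in control, 148, 130 and 146 CPM in stress, and 126, 139 and 135 CPM in recovery. Both treated Mock groups lay above control, at 0.34 (SE 0.07, adjusted p = 0.000307) and 0.25 (SE 0.07, adjusted p = 0.00311), the second being 0.01 under total library size (adjusted p = 0.886). Rin libraries held 115, 111 and 112 CPM in control, 141, 142 and 141 CPM in stress, and 115, 130 and 119 CPM in recovery. The Rin stress change was 0.33 (SE 0.07, adjusted p = 0.000376), or 0.16 under total library size (adjusted p = 0.0642). Recovery touched control there at 0.11 (SE 0.07, adjusted p = 0.181), and total library size turned it to -0.17 (adjusted p = 0.0444).

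Xbp1, the transcription factor gene whose RNA Ire1 splices (2R), stood at 644, 620 and 626 CPM in WT control, 769, 776 and 804 CPM in stress, and 779, 765 and 782 CPM in recovery. Both treated WT groups lay above control and overlapped each other, with log2 changes of 0.31 (SE 0.03, adjusted p = 1.21e-10) and 0.30 (SE 0.03, adjusted p = 2.34e-10). In Mock libraries the values were 792, 785 and 784 CPM in control, 732, 815 and 750 CPM in stress, and 717, 726 and 736 CPM in recovery. Stress spread to both sides of control at -0.04 (SE 0.05, adjusted p = 0.531), and recovery lay wholly below it at -0.12 without passing the test (SE 0.05, adjusted p = 0.0535). Rin libraries ranged from 712 to 733 CPM in control, 704 to 743 CPM in stress and 690 to 723 CPM in recovery, overlapping throughout, at log2 changes of -0.01 (adjusted p = 0.836) and -0.05 (adjusted p = 0.438). Total library size placed Xbp1 among the lower genes in Mock stress at -0.21 (adjusted p = 0.00112) and in Rin stress at -0.18 (adjusted p = 0.00354). It did so too in Mock recovery at -0.36 (adjusted p = 1.8e-06) and in Rin recovery at -0.33 (adjusted p = 5.29e-06), and DESeq2 called Mock recovery at -0.12 (adjusted p = 0.00935).

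Atf6, the ER membrane sensor that is released as a transcription factor (2R), was the member that fell in every poly(A) comparison with control. WT libraries held 130, 147 and 148 CPM in control, 104, 100 and 91.2 CPM in stress, and 78.7, 85.1 and 83.7 CPM in recovery. The 3 groups were separate, and Atf6 fell by 0.53 in stress (SE 0.05, adjusted p = 2.57e-11) and by 0.79 in recovery (SE 0.05, adjusted p = 2.71e-16) on the log2 scale. Mock libraries held 113, 128 and 121 CPM in control, 93.4, 84.7 and 92.5 CPM in stress, and 75.5, 86.0 and 75.9 CPM in recovery. Control lay above both other Mock groups, at -0.42 (SE 0.08, adjusted p = 0.000107) and -0.61 (SE 0.08, adjusted p = 8.03e-07). Rin libraries held 128, 122 and 120 CPM in control, 84.0, 71.1 and 91.5 CPM in stress, and 72.1, 68.1 and 73.7 CPM in recovery. Control was again the highest group, at log2 changes of -0.58 (SE 0.08, adjusted p = 1.67e-06) and -0.79 (SE 0.08, adjusted p = 1.96e-08).

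Hsc70-3, the BiP gene (X, 11801696 to 11807117, minus strand), rose most in WT cells by recovery and by less in Mock and Rin cells. WT libraries held 1043, 1061 and 1058 CPM in control, 1670, 1628 and 1696 CPM in stress, and 2311, 2358 and 2291 CPM in recovery. The groups lay far apart, at a log2 change of 0.66 in stress (SE 0.03, adjusted p = 2.33e-21) and a 2.20-fold rise in recovery (95% interval 2.11 to 2.30, adjusted p = 6.3e-30). Mock libraries held 1587, 1628 and 1557 CPM in control, 2188, 1861 and 2053 CPM in stress, and 2098, 2101 and 2039 CPM in recovery. Both treated Mock groups were above control and overlapped each other, at 0.35 (SE 0.06, adjusted p = 3.17e-05) and 0.39 (SE 0.06, adjusted p = 8e-06). Rin libraries held 1667, 1599 and 1599 CPM in control, 2141, 1979 and 2102 CPM in stress, and 1945, 2085 and 2070 CPM in recovery. Their treated groups also lay above control, at 0.35 (SE 0.06, adjusted p = 2.84e-05) and 0.33 (SE 0.06, adjusted p = 5.28e-05). Total library size left recovery values of 0.14 in Mock (adjusted p = 0.0514) and 0.05 in Rin (adjusted p = 0.54).

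Counted together, 7 of the 8 genes were called in WT stress, where 60.3% of all 8123 genes tested were called, and 7 in WT recovery, where 68.7% were. Of these, 6 were higher and 1 lower each time, against 30.3% of all genes higher and 30% lower in stress and 35.2% higher and 33.5% lower in recovery. In Mock cells 7 members were called in stress (58.8% of 8707 genes) and 6 in recovery (65.8%), and in Rin cells 7 in stress (61.2%) and 5 in recovery (69.5%). Mock members split into 5 higher and 2 lower in stress (29% and 29.8% of all genes) and 4 higher and 2 lower in recovery (33.1% and 32.8%). Rin members split into 5 higher and 2 lower in stress (30.4% and 30.8% of all genes) and 3 higher and 2 lower in recovery (35.2% and 34.3%). Most genes tested were called in each of these comparisons, so the number of members called is near that background. Their median log2 change in recovery was 0.44 in WT, 0.18 in Mock and 0.04 in Rin cells, beside 0.00, 0.01 and 0.03 over all genes.

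Scaling by total library size alone moved the median gene by -0.10 in WT stress, -0.18 in WT recovery, -0.17 in Mock stress, -0.24 in Mock recovery, -0.17 in Rin stress and -0.28 in Rin recovery. Calls over all genes were 2459 higher and 2438 lower in WT stress and 2861 higher and 2719 lower in WT recovery. Under total library size they became 1901 higher and 3285 lower, and 2003 higher and 4092 lower. Mock calls went from 2525 higher and 2592 lower to 1685 and 3769 for stress, and from 2881 and 2852 to 1738 and 4266 for recovery. Rin calls went from 2649 higher and 2678 lower to 1753 and 3799 for stress, and from 3067 and 2985 to 1811 and 4377 for recovery. All changes above are thus relative to the bulk of the other transcripts.

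**Figure D2:**
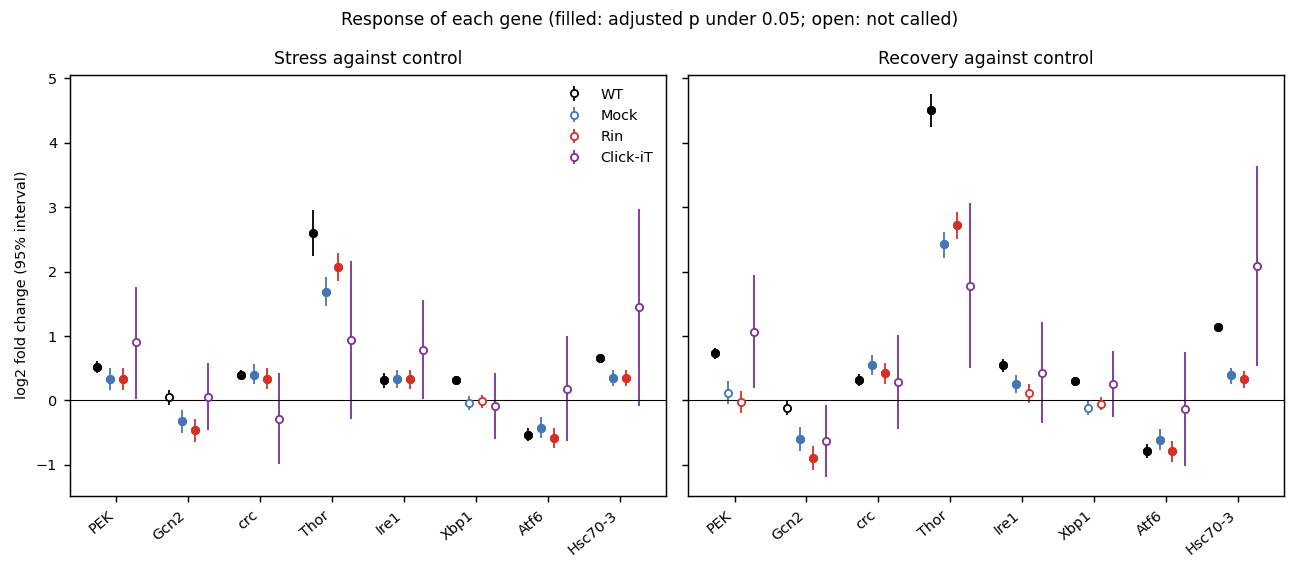
Log2 fold change against control (points) with its 95% interval (bars) for each gene in WT, Mock, Rin and Click-iT cells, with stress on the left and recovery on the right, filled where the adjusted p was under 0.05. Thor stands highest in WT, Mock and Rin cells, Atf6 lies below 0 in those sets, and no Click-iT point is filled.

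Between stress and recovery the genes went different ways in the 3 sets. In WT cells 6 members were called, 4 higher and 2 lower, where 26.5% of all genes were called, 18.2% higher and 8.33% lower. Thor rose by a further 1.90 (SE 0.08, adjusted p = 1.29e-21), Hsc70-3 by 0.48 (SE 0.03, adjusted p = 5.39e-17), Ire1 by 0.24 (adjusted p = 0.000193) and PEK by 0.21 (adjusted p = 9.03e-05) on the log2 scale. Atf6 fell by 0.26 (adjusted p = 0.000394) and Gcn2 by 0.16 (adjusted p = 0.0266), while crc at -0.07 and Xbp1 at -0.01 did not pass the test. Under total library size both were called lower, crc at -0.15 (adjusted p = 0.00535) and Xbp1 at -0.09 (adjusted p = 0.0279). The Gcn2 call was lost without stress replicate 1 or 3 or recovery replicate 1 or 2, with adjusted p from 0.0759 to 0.0856, and with DESeq2 (adjusted p = 0.149). In Mock cells 1 member was called, where 9.33% of all genes were (5.02% higher, 4.31% lower), and it was Thor at 0.73 (SE 0.08, adjusted p = 1.65e-05). Without Mock stress replicate 2, a further 3 members were called lower there, Gcn2 at -0.40 (adjusted p = 0.000887), PEK at -0.30 (adjusted p = 0.00568) and Atf6 at -0.23 (adjusted p = 0.0397), and 2396 genes in place of 812.

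In Rin cells 4 members were called between stress and recovery, where 30.5% of all genes were called, 14.2% higher and 16.2% lower. Thor rose by 0.65 (SE 0.08, adjusted p = 4.23e-05), while Gcn2 fell by 0.44 (SE 0.09, adjusted p = 0.00197), PEK by 0.36 (SE 0.08, adjusted p = 0.00376) and Ire1 by 0.22 (SE 0.07, adjusted p = 0.0217). The Ire1 call was lost without stress replicate 2 or 3 or recovery replicate 1 or 3, with adjusted p from 0.0501 to 0.112, and Atf6 at -0.21 (adjusted p = 0.0547) was called at -0.30 without stress replicate 2 (adjusted p = 0.00767). Under total library size, calls over all genes went from 1475 higher and 677 lower to 1184 and 2162 in WT, from 437 and 375 to 271 and 1168 in Mock, and from 1239 and 1413 to 592 and 2565 in Rin cells.

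RNAi against rin left no called difference in any of the 8 genes. By edgeR, 0 members were called between Rin and Mock in control, where 0.0459% of all genes were called, 0.023% higher and 0.023% lower. The count was also 0 in stress, where 0.161% of all genes were called (0.0919% higher, 0.0689% lower), and in recovery, where 0.126% were (0.0689% higher, 0.0574% lower). DESeq2 also called 0 members in each. At an unadjusted p under 0.05 there were 3 in control and 0 in stress and recovery. Those 3 were Gcn2, at 94.3, 89.3 and 92.8 CPM in Rin and 67.4, 83.2 and 76.1 CPM in Mock control (log2 difference 0.29, 95% interval 0.11 to 0.47, adjusted p = 0.386), Thor at -0.32 (-0.59 to -0.05) and Xbp1 at -0.12 (-0.22 to -0.01). Gcn2 was higher in 3 of 3 Rin control libraries, and without the filter on low counts its difference was called at 0.30 (adjusted p = 0.0255). In stress the 95% intervals of all 8 differences lay between -0.30 and 0.34, and in recovery between -0.32 and 0.19. These intervals bound the difference and do not show that the levels were equal.

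The change on treatment was also compared directly between Rin and Mock cells. By edgeR, 0 of 8 members and 0% of all genes were called in the difference of responses, in stress and in recovery, and DESeq2 likewise called 0 of both. With an unadjusted p under 0.05 there was 1 member each time. Thor rose by 2.07 in Rin and 1.69 in Mock stress, a difference of 0.38 (95% interval 0.06 to 0.71, adjusted p = 1). Gcn2 fell by 0.89 in Rin and 0.60 in Mock recovery, a difference of -0.29 (-0.56 to -0.03, adjusted p = 0.571). For Hsc70-3 the stress difference was 0.00 (-0.17 to 0.17) and the recovery difference -0.06 (-0.23 to 0.11).

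The responses of WT and Mock cells differed for 4 of the 8 genes in stress and 7 in recovery. No label gives a batch, and the set and any batch between the sets cannot be told apart. In the difference of stress responses the 4 called members were all lower in Mock, where 26.5% of all genes were called (13.5% lower). In recovery the 7 called were 1 higher and 6 lower in Mock, where 42.6% of all genes were called (18.8% higher, 23.8% lower). Under total library size, calls over all genes went from 1136 higher and 1178 lower to 711 and 1688 for stress and from 1641 and 2076 to 1044 and 2646 for recovery. Thor rose by 2.05 less in Mock than in WT recovery on the log2 scale (95% interval 1.65 to 2.46 less, adjusted p = 6.96e-08), and Hsc70-3 by 0.71 less (0.56 to 0.87 less, adjusted p = 1.87e-07).

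Starting levels differed between the sets for several of these genes. The control level is subtracted in each response, so starting level and response are not independent. With WT and Mock libraries scaled together, Thor control levels were 1.79 to 2.95 CPM in WT and 8.54 to 11.5 CPM in Mock, while recovery levels were 50.4 to 54.7 CPM and 51.5 to 58.9 CPM, which overlap. Hsc70-3 stood at 1057 to 1071 CPM in WT control and 1522 to 1594 CPM in Mock control, and at 2283 to 2358 CPM and 2027 to 2094 CPM in recovery, so that Mock was higher in control and lower in recovery. For crc, Mock libraries were higher throughout, with means of 255 against 144 CPM in control and 380 against 178 CPM in recovery. Xbp1 control means were 637 CPM in WT and 773 CPM in Mock, and PEK means were 185 and 271 CPM. Gcn2 control levels overlapped, at 65.7 to 70 CPM in WT and 66.8 to 81.4 CPM in Mock. Both differences of its responses were called, and the stress call was lost in several alternative fits. Atf6 control levels did not overlap, at 132 to 150 CPM in WT and 112 to 125 CPM in Mock, and its responses were not called different. Whether starting levels bear on the differences in response was not tested. The summed level of the 8 hemocyte-like markers was 4257 to 5308 CPM in WT libraries, 952 to 1609 CPM in Mock and 867 to 1632 CPM in Rin libraries. Most of that gap was Pxn, a peroxidasin gene, at 2920 to 3799 CPM in WT, 331 to 579 CPM in Mock and 290 to 602 CPM in Rin libraries. Without it the sum was 1180 to 1509 CPM in WT, 618 to 1032 CPM in Mock and 577 to 1030 CPM in Rin libraries. Of the other markers, Hml, a hemolectin gene, was higher in all WT than in all Mock and Rin libraries, while srp, ush, Sr-CI and crq overlapped between the sets and NimC1 and He were at or near 0. Their part in the differences between sets was not tested.

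**Figure D3:**
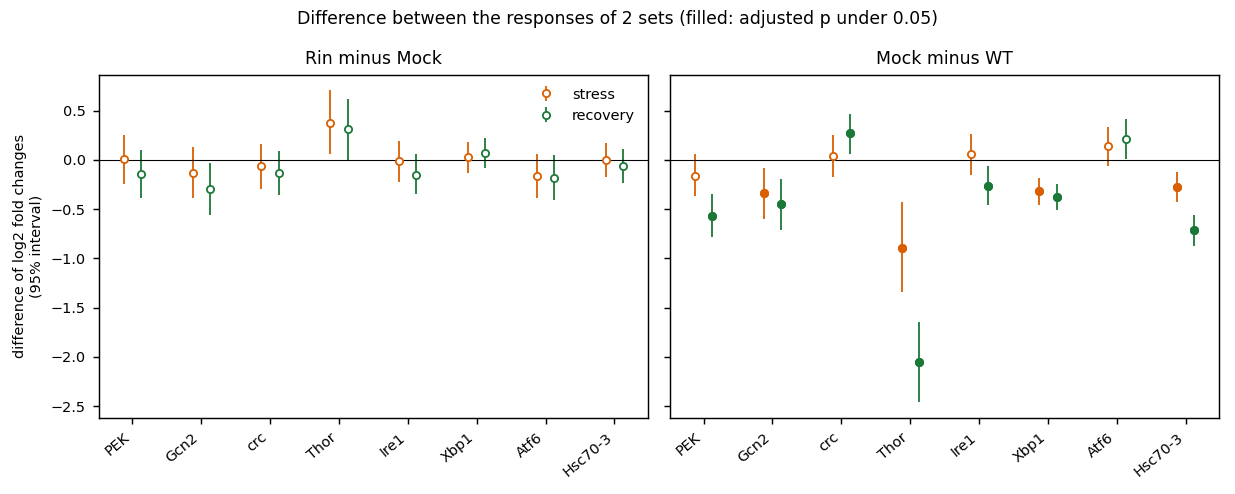
Difference between the log2 responses of 2 sets (points) with 95% intervals (bars) for each gene, with Rin minus Mock on the left and Mock minus WT on the right, orange for stress and green for recovery, filled where the adjusted p was under 0.05. No point is filled on the left, and Thor in recovery lies lowest on the right at -2.05.

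The Click-iT libraries gave wide intervals and no calls. By edgeR, 0 members and 0% of all 6558 genes were called in stress, recovery or recovery against stress. At an unadjusted p under 0.05 there were 2, 4 and 1 members, and 983, 1448 and 727 genes. DESeq2 called 160, 545 and 5 genes, and among them 0, 2 and 0 members. The largest biological coefficient of variation of the fits was here, at 42.8%, against 2.85% in WT and 6.49% in Mock and Rin cells.

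Thor in Click-iT libraries held 99.9, 51.0 and 83.4 CPM in control, 89.1, 69.3 and 288 CPM in stress, and 361, 161 and 280 CPM in recovery. Recovery lay above control in 3 of 3 libraries, at a log2 difference of 1.78 (SE 0.57, 95% interval 0.51 to 3.06, adjusted p = 0.166), and DESeq2 called it at 1.77 (adjusted p = 0.0416). Hsc70-3 held 963, 1030 and 919 CPM in control, 1807, 855 and 5284 CPM in stress, and 6594, 1659 and 4112 CPM in recovery. Stress libraries lay on both sides of control, at 1.45 (SE 0.68, adjusted p = 0.34), or 0.46 without stress replicate 3 (adjusted p = 0.976). Hsc70-3 recovery libraries all lay above control, at 2.09 (SE 0.69, adjusted p = 0.166), a value DESeq2 called at 2.05 (adjusted p = 0.0303). For PEK the Click-iT values were 319, 327 and 304 CPM in control and 861, 435 and 697 CPM in recovery, without overlap, at 1.07 (SE 0.39, adjusted p = 0.17). Atf6 recovery rested on 32, 11 and 4 reads, and no direction can be read from it at this depth.

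Levels can be set side by side between genes only per length, here as CPM per kilobase of exon that belongs to no other gene. In WT control, Xbp1 and Hsc70-3 both averaged 294 and overlapped, crc followed at 156, and PEK at 37.6 overlapped Atf6 at 34.8. Below them came Ire1 at 23.6, Gcn2 at 12.8 and Thor at 3.02, none of which overlapped its neighbour. In WT recovery the order was Hsc70-3 at 646, Xbp1 at 362, crc at 196, Thor at 69.1, PEK at 62.4, Ire1 at 34.8, Atf6 at 20.2 and Gcn2 at 11.8, and no neighbours overlapped. Thor thus moved from the lowest per-length level of the 8 to the fourth. Mock and Rin recovery placed crc, at 420 and 396, above Xbp1, at 339 and 328, with no overlap, and otherwise kept the order seen in WT recovery. The place of crc rests on its 908 unshared bases. Over all 3423 exonic bases, an alternative chosen after seeing the data, crc would stand at 111 in Mock and 105 in Rin recovery, below Xbp1, and at 52.0 in WT recovery, below Thor and PEK.

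**Figure D4:**
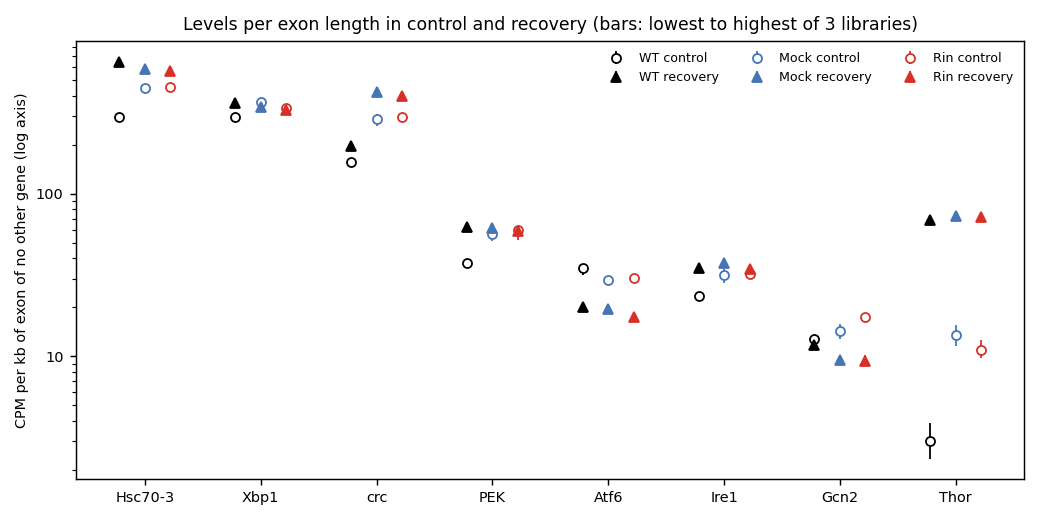
Level per kilobase of exon of no other gene (log axis) in control (open circles) and recovery (filled triangles) for WT, Mock and Rin cells, as the mean of 3 libraries with bars from lowest to highest, ordered by WT control. Thor and Hsc70-3 rise from control to recovery in each set, and Atf6 lies lower in recovery.

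Other genes of the pathways were counted from 6 lists. Of 16 genes that are targets or partners of ATF4 in the fly or in mammals, 12 rose and 4 fell in WT recovery, 14 rose and 2 fell in Mock recovery, and 13 rose and 1 fell in Rin recovery. Of all genes tested, 35.2% rose and 33.5% fell in WT recovery, 33.1% and 32.8% in Mock recovery, and 35.2% and 34.3% in Rin recovery. Under total library size the list's counts were 10 and 4, 9 and 2, and 9 and 3. With that scaling 2003 of all 8123 genes rose and 4092 fell in WT recovery. Of 8707 genes, 1738 rose and 4266 fell in Mock and 1811 rose and 4377 fell in Rin recovery. The list's median log2 change was 0.43 in WT, 0.61 in Mock and 0.76 in Rin recovery, beside 0.00, 0.01 and 0.03 over all genes. The gene scyl, an inhibitor of the TOR pathway, went from 41.1, 51.3 and 47.1 CPM in WT control to 148, 126 and 110 CPM in stress and 632, 690 and 698 CPM in recovery, a log2 rise of 3.85 by recovery (SE 0.07, adjusted p = 1.71e-36). Gadd45, a stress-induced growth arrest gene, rose by 3.04 (SE 0.06, adjusted p = 5.58e-34) from 21.7, 21.0 and 24.6 CPM to 179, 189 and 187 CPM. Likewise aay, the phosphoserine phosphatase of serine synthesis, rose by 2.03 (SE 0.06, adjusted p = 1.55e-28) from 30.8, 29.9 and 30.6 CPM to 119, 128 and 128 CPM. In Mock and Rin recovery these rose too, scyl by 2.62 and 2.59, Gadd45 by 2.49 and 2.56, and aay by 1.64 and 1.85.

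The ATF4 list did not move as one. Shmt, the serine hydroxymethyltransferase of one-carbon metabolism, fell in WT recovery by 0.40 (SE 0.04, adjusted p = 1.65e-11), from 224, 218 and 217 CPM to 165, 167 and 167 CPM. CG11899 fell by 0.25 (SE 0.06, adjusted p = 0.000277) and Eip55E, the cystathionine gamma-lyase gene, by 0.21 (SE 0.04, adjusted p = 1.77e-05). In Mock recovery Shmt stood at 0.18 (adjusted p = 0.0255) and Eip55E at 0.16 (adjusted p = 0.0144). Both calls were lost under total library size, at -0.06 (adjusted p = 0.424) and -0.08 (adjusted p = 0.205). Without single Mock libraries the Shmt value was 0.14 to 0.18 with adjusted p from 0.0691 to 0.112 in 4 of 6 fits, and Eip55E was 0.13 (adjusted p = 0.0767) without control replicate 3.

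ER chaperones and folding enzymes rose almost throughout in WT cells. Of 15 genes, 13 rose and 1 fell in WT stress and 14 rose and 1 fell in WT recovery, where 30.3% of all genes rose and 30% fell in stress and 35.2% rose and 33.5% fell in recovery. The list gave 12 and 2, then 9 and 1, under total library size, where calls over all genes were 1901 and 3285, then 2003 and 4092. In Mock recovery 8 rose and 3 fell and in Rin recovery 7 rose and 3 fell, beside 33.1% and 32.8% of all genes in Mock and 35.2% and 34.3% in Rin. Total library size turned these directions to 2 and 7 and to 1 and 9. Calls over all genes then were 1738 higher and 4266 lower in Mock and 1811 higher and 4377 lower in Rin recovery. Median log2 changes in recovery were 0.37 in WT, 0.14 in Mock and 0.13 in Rin, beside 0.00, 0.01 and 0.03 over all genes. Gp93, the ER Hsp90 chaperone, went from 774, 783 and 788 CPM in WT control to 1495, 1493 and 1535 CPM in recovery, a rise of 0.95 (SE 0.03, adjusted p = 5.36e-26). The ER cochaperone gene shv rose by 0.62 in WT recovery (SE 0.05, adjusted p = 2.97e-14). Fkbp14, an ER prolyl isomerase, rose by 0.55 in WT (SE 0.03, adjusted p = 2.42e-17), 0.72 in Mock and 0.80 in Rin recovery. Uggt, the glucosyltransferase that marks misfolded glycoproteins, fell in the 3 sets, by 0.72 (SE 0.04, adjusted p = 1.47e-17), 1.30 (SE 0.07, adjusted p = 4.63e-12) and 1.56 (SE 0.08, adjusted p = 2.91e-13).

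Of 12 genes of ER-associated degradation, 4 rose and 4 fell in WT recovery, close to the background of 35.2% of all genes higher and 33.5% lower. In Mock recovery 2 rose and 5 fell (33.1% and 32.8% of all genes), and in Rin recovery 4 rose and 6 fell (35.2% and 34.3%). The median log2 changes were 0.00, -0.12 and -0.10, beside 0.00, 0.01 and 0.03 over all genes. Under total library size the counts were 2 and 8, 0 and 9, and 0 and 8. That scaling moved all genes the same way, to 2003 higher and 4092 lower in WT, 1738 and 4266 in Mock, and 1811 and 4377 in Rin recovery. In WT recovery Herp, a membrane part of the degradation complex, rose by 0.40 (SE 0.08, adjusted p = 1.8e-05) and Der-1, a derlin, by 0.26 (SE 0.05, adjusted p = 5.84e-05). Ubc6 rose by 0.33 (SE 0.04, adjusted p = 2.09e-09), although the fly gene of that name encodes a Rad6-type enzyme and not the yeast enzyme of ER degradation. Edem2, a mannosidase-like lectin of the ER, fell by 0.27 in WT (SE 0.05, adjusted p = 2.21e-05), 0.64 in Mock and 0.83 in Rin recovery. Edem1, its relative, fell by 0.25, 0.40 and 0.61, and Ufd1-like, a cofactor of the TER94 ATPase, fell by 0.28 in WT (adjusted p = 8.89e-05) but rose by 0.34 in Rin recovery (adjusted p = 0.000685).

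A list of 10 genes held those of eIF2, its exchange factor eIF2B and the eIF2 phosphatase, and also CG17514, which was entered as Gcn1. Of these, 2 rose and 4 fell in WT recovery, and 5 rose and 1 fell in Mock and in Rin recovery. Of all genes, 35.2% rose and 33.5% fell in WT, 33.1% and 32.8% in Mock, and 35.2% and 34.3% in Rin recovery, so the WT counts are near the background. The list's median log2 change was -0.10 in WT, 0.20 in Mock and 0.29 in Rin recovery, beside 0.00, 0.01 and 0.03 over all genes, and whether the sets differ over the list was not tested. The counts were 0 and 8, 2 and 5, and 4 and 4 under total library size, beside 2003 and 4092, 1738 and 4266, and 1811 and 4377 over all genes. PPP1R15, which directs the phosphatase to eIF2 and is counted in the ATF4 list too, rose by 0.27 in WT (SE 0.05, adjusted p = 4.85e-06), 0.38 in Mock and 0.37 in Rin recovery. CG17514 fell by 1.12 (SE 0.06, adjusted p = 3.99e-19), 1.05 and 1.24, from 82.1, 91.0 and 88.5 CPM in WT control to 40.3, 41.5 and 38.9 CPM in recovery. The eIF2 subunit eIF2beta rose by 0.18 in WT (adjusted p = 8.16e-06), 0.43 in Mock and 0.67 in Rin recovery. The eIF2B subunits named fell in WT recovery, eIF2Bgamma by 0.40 (SE 0.07, adjusted p = 1.24e-05) and eIF2Bdelta by 0.18 (SE 0.05, adjusted p = 0.00201), while eIF2Bdelta rose by 0.30 in Mock and 0.44 in Rin recovery.

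Of 11 genes of ER translocation and the signal peptidase, 5 rose and 0 fell in WT recovery (35.2% and 33.5% of all genes), 6 rose and 2 fell in Mock (33.1% and 32.8%) and 8 rose and 2 fell in Rin recovery (35.2% and 34.3%). Median log2 changes were 0.08, 0.16 and 0.31, beside 0.00, 0.01 and 0.03 over all genes. Total library size turned the counts to 0 and 4, 2 and 4, and 3 and 3, beside 2003 and 4092, 1738 and 4266, and 1811 and 4377 over all genes. Spase12, a signal peptidase subunit, rose by 0.26 in WT (SE 0.05, adjusted p = 3.34e-05), 0.54 in Mock and 0.82 in Rin recovery. Sec61beta, of the translocation channel, rose by 0.19, 0.52 and 0.71, and SsRbeta, of the translocon-associated complex, by 0.20 in WT (adjusted p = 2.99e-05). The other Hsp70 cognates were counted to set BiP beside its relatives. Of the 3 tested, 3 rose and 0 fell in WT recovery (35.2% and 33.5% of all genes). In Mock recovery 2 rose and 1 fell (33.1% and 32.8%), and in Rin recovery 2 rose and 0 fell (35.2% and 34.3%). Under total library size 1 rose and 1 fell in each set. Hsc70-4, the cytosolic cognate, rose by 0.44 in WT (SE 0.03, adjusted p = 1.59e-17), 0.54 in Mock and 0.61 in Rin recovery, and was not called in WT stress at 0.06 (adjusted p = 0.0798). Hsc70-5, the mitochondrial one, rose by 0.17 in WT recovery (adjusted p = 2.87e-05), or -0.01 under total library size (adjusted p = 0.79), and Hsc70Cb stood at 0.10 (adjusted p = 0.00582), or -0.07 (adjusted p = 0.0496). Hsc70-1 and Hsc70-2 were too low to test, with 0 reads each over the 3 WT control libraries and 8 each over the 3 WT recovery libraries.

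**Figure D5:**
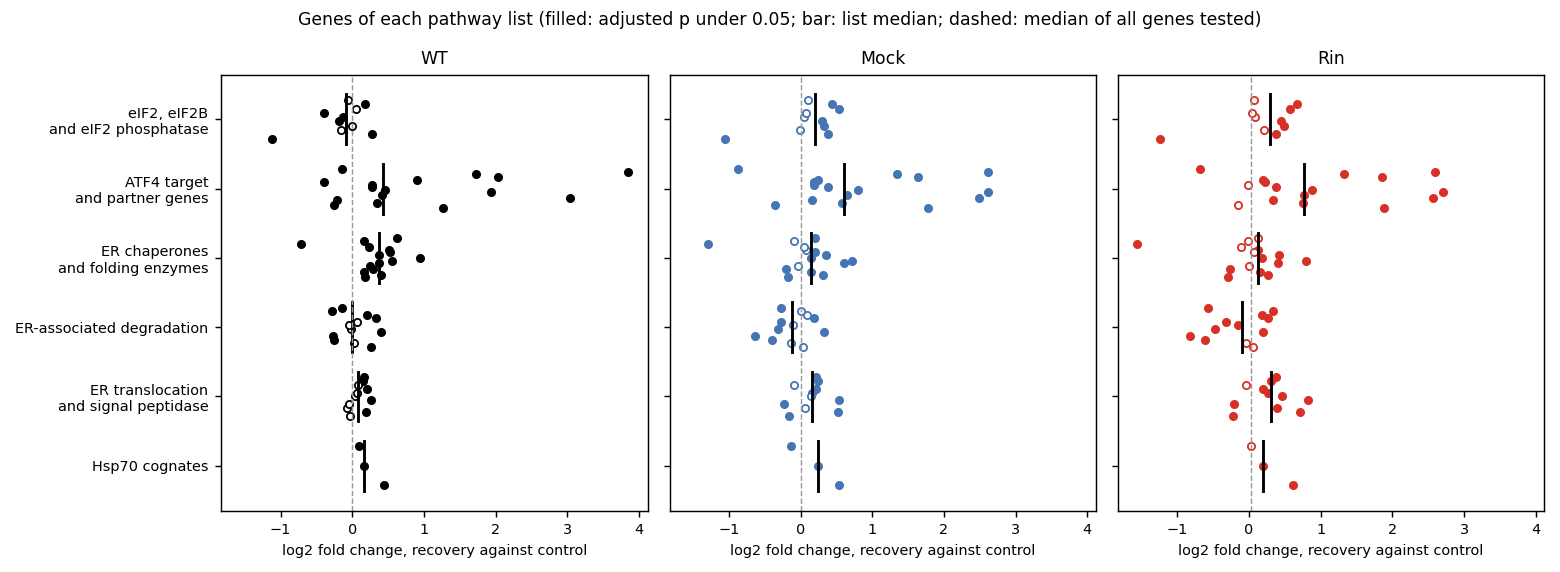
Log2 fold change of recovery against control for the genes of 6 pathway lists in WT, Mock and Rin cells, filled where the adjusted p was under 0.05, with a black bar for the list median and a dashed line for the median of all genes tested. The ATF4 list reaches 3.85 in WT and has the highest median of the lists in each set.

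The genes whose levels moved most like a member were sought over the 27 poly(A) libraries, as a description. Levels were taken as log2 of CPM plus 1, and each set's control mean was subtracted. The points share libraries and treatments, so correlations are high for any gene that responds in the same order. Among 6424 genes, Thor was most like Rgk1 (Pearson 0.994), CG17834 (0.993) and GstD10 (0.991), and in WT recovery those rose by 5.51, 3.45 and 6.86 on the log2 scale. Hsc70-3 was most like Gclc (0.989), rdog (0.984) and dnr1 (0.983), which rose by 1.22, 2.13 and 3.08 in WT recovery. Gclc encodes the catalytic subunit of the enzyme that limits glutathione synthesis. For Xbp1 they were gas (0.962), kra (0.953) and CG4452 (0.948), and for crc they were sba (0.931), RNaseX25 (0.923) and GEFmeso (0.922). Between members, PEK and Ire1 moved together (0.91), as did Thor and Hsc70-3 (0.91), and Thor and Atf6 moved in opposite directions (-0.92). For crc and Xbp1 the correlation was 0.00, but it pools sets that differ. In WT stress and recovery both were called higher, crc at 0.39 and 0.32 and Xbp1 at 0.31 and 0.30. In Mock and Rin cells crc was called higher and Xbp1 was not called.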

How the data were processed

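The deposited files hold raw counts of reads per gene for each of 36 libraries, made by the authors with STAR 2.5.3 and HTSeq on dm6, per the submitters' processing notes; the lines for unassigned reads stayed out of library sizes. Tables of the authors' own DESeq2 comparisons were not used here. Counts were fitted with edgeR 4.0.16 (R 4.3.3) after its standard filter on low counts and TMM scaling, in separate fits for WT (8123 genes), Mock with Rin (8707), Click-iT (6558) and WT with Mock (8716), with groups as terms and no block. Its quasi-likelihood test was two-sided, with Benjamini-Hochberg adjustment and a threshold of 0.05 over 19 comparisons. The procedure was tested on simulated data with a fixed spread per fit and few changed genes. In WT, Mock and Rin cells most genes were called against control, so that simulation cannot vouch for the scaling or the error rate here. Gene positions come from BDGP6.54, which 16293 of the 17137 symbols matched. The members and lists were chosen with earlier results of these data known, and the ATF4 list mixes fly and mammalian targets. In each list at most the 3 highest and 3 lowest genes called in WT recovery with at least 10 CPM in a group were named, all Hsp70 cognates were named, and likeness was ranked among genes of at least 10 CPM. Sil1 replaced CG10973, which had been listed under its name by mistake. Alternatives were other scalings, other filters on low counts, DESeq2 1.42.0, fits of only the groups compared, a replicate block and each replicate left out.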

Additional observations from a re-analysis of the deposited data

Results flagged for a closer look

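The difference between the Mock and WT responses passed edgeR's quasi-likelihood test for 11 gene and treatment pairs. In stress it was -0.89 for Thor (adjusted p = 0.00442), -0.34 for Gcn2 (adjusted p = 0.046), -0.32 for Xbp1 (adjusted p = 0.000895) and -0.27 for Hsc70-3 (adjusted p = 0.00807) on the log2 scale. In recovery it was -2.05 for Thor (adjusted p = 6.96e-08), -0.71 for Hsc70-3 (adjusted p = 1.87e-07), -0.57 for PEK (adjusted p = 0.000186), -0.45 for Gcn2 (adjusted p = 0.00671), -0.38 for Xbp1 (adjusted p = 0.00011), -0.26 for Ire1 (adjusted p = 0.037) and 0.27 for crc (adjusted p = 0.0344). The Gcn2 stress difference was lost with DESeq2 (adjusted p = 0.0743), with DESeq2-type size factors in edgeR (adjusted p = 0.0573), with a minimum mean of 10 CPM (adjusted p = 0.0539), in a fit of only the groups compared (adjusted p = 0.0918) and in 5 of the fits without 1 library. The crc recovery difference was lost under total library size (0.17, adjusted p = 0.24) and in 9 such fits. The Ire1 recovery difference was lost with DESeq2 (adjusted p = 0.0599), in a fit of only the groups compared (adjusted p = 0.0659) and in 7 such fits. No library was removed as an outlier, since each group holds 3. Replicate pairs were compared with sampling noise by chi-square per degree of freedom. Mock stress replicate 2 gave 25.7 against replicate 1 and 18.7 against replicate 3, and those gave 1.86 between them. All other pairs of WT, Mock and Rin libraries gave 1.19 to 10, and Click-iT pairs gave 3.42 to 83.9.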

How the results depend on the processing

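Of 2168 values recomputed for single members, 1997 kept their direction and side of the threshold, 87 changed sign without being called either way, 49 lost the call, 34 gained it and 1 reversed. Of 1134 values for named list genes without leaving out libraries, 1027 kept both, 15 changed sign uncalled, 47 lost the call, 21 gained it and 24 reversed. Reversed here means a change of sign with a call in the main fit, the alternative fit or both, so it includes calls that were only lost. These reversals and 1 of rin all came with total library size, under which the median gene moved down in each comparison of WT, Mock and Rin cells with control. It gave -0.09 for Hsc70Cb in WT stress; -0.09 for rin, -0.01 for Hsc70-5 and -0.07 for Hsc70Cb in WT recovery; 0.00 for Shmt and shv in Mock stress. In Mock recovery it gave -0.17 for eIF2Bgamma, -0.08 for Eip55E, -0.06 for Shmt and Ubc6, -0.10 for Gp93, -0.04 for shv, -0.21 for Der-1, -0.02 for SsRbeta and 0.00 for Hsc70-5. In Rin recovery it gave -0.17 for Ire1, -0.24 for eIF2Bgamma, -0.06 for Shmt, -0.10 for Gp93, -0.15 for shv, -0.08 for Herp and SsRbeta, -0.02 for Ubc6, -0.22 for Der-1, -0.09 for Hsc70-5 and -0.25 for Hsc70Cb. Called under total library size were Hsc70Cb in WT stress, rin and Hsc70Cb in WT recovery, and eIF2Bgamma and Der-1 in Mock recovery. In Rin recovery these were Ire1, eIF2Bgamma, shv, Der-1 and Hsc70Cb. The rest of these values were not called under that scaling and had only lost the call of the main fit. Total library size called 3346 genes between WT stress and recovery, and 1439 with 5 members between Mock stress and recovery. The latter comparison gave 1274 genes and 3 members without the filter on low counts, 2 members with DESeq2, 491 genes with the replicate block and 99 in a fit of only the groups compared. Without the filter, Click-iT calls were 851 in stress, 1006 with 2 members in recovery and 96 between them, Rin against Mock calls were 58 with 1 member in control, 45 in stress and 92 in recovery, and differences of the Rin and Mock responses were 2 and 51. DESeq2 gave 160, 545 with 2 members and 5 for Click-iT, and 11, 35 and 47 for Rin against Mock. With the replicate block Rin against Mock gave 1, 2 and 2 genes, and the Mock minus WT differences of Gcn2 in stress (adjusted p = 0.0721), crc in recovery (adjusted p = 0.066) and Ire1 in recovery (adjusted p = 0.0538) were not called. A fit of only the groups compared gave 281 genes and 1 member in Click-iT recovery, and 1 and 40 for Rin against Mock in stress and recovery. Leaving out each replicate gave 233 (without Mock stress replicate 1) to 2396 genes (without Mock stress replicate 2) and 1 to 4 members between Mock stress and recovery, 1427 to 2433 between Rin stress and recovery, and 0 to 304 in Click-iT stress, the highest without stress replicate 2. Rin against Mock gave 1 to 2, 4 to 30 and 7 to 12 without single libraries. The cause was not tested for these counts. No member call against control in WT, Mock or Rin cells was lost without 1 library. Replicate numbers were not taken to pair the samples, since same-numbered libraries did not all correlate above 0.1: correlations lay between -0.08 and 0.05 for WT, -0.41 and 0.24 for Mock, -0.13 and 0.13 for Rin, -0.35 and 0.60 for the Click-iT set and -0.09 and 0.27 between Mock and Rin, where 3 of 9 pairs exceeded 0.1. Of 9 pairs each, 0 did so in WT, 3 in Mock, 1 in Rin and 3 in the Click-iT set. This rule is not a test of pairing. In replicate order, rin RNA was 391, 280 and 204 CPM in Rin control, 285, 180 and 145 CPM in Rin stress, and 252, 181 and 150 CPM in Rin recovery. Whether same-numbered Rin libraries share a knockdown was not tested. Click-iT depth, and the large share of its reads aligned to more than 1 place, limit any statement on that set.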
